A study of Saccharomyces cerevisiae with 12 samples.

Results

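Yeast builds methionine from inorganic sulfate by one main route, and 10 of its genes (MET3, MET14, MET16, MET5, MET10, MET2, MET17, MET6, SAM1 and SAM2) were followed here through RNA-seq of a strain without dihydrouridine synthases. They were chosen by name, as the features carrying these 10 systematic names among the 6612 features of each library. RNA-seq libraries of dus1Δ dus2Δ dus3Δ dus4Δ cells (DUS KO, n = 3) were set against libraries of BY4741, the wild-type laboratory strain (WT, n = 3). Cells of both strains are described as harvested in mid-log phase, and the labels name no treatment of the cells. The paper's methods state an optical density of the culture for RNA isolation but no growth phase. Neither the labels nor the paper's methods name the growth medium used. By genotype, DUS KO cells lack the genes of all 4 enzymes that reduce uridine to dihydrouridine. The mutant descends from a cross of a dus1Δ dus2Δ strain with a dus4Δ dus3Δ strain and was isolated by tetrad dissection, so that it may differ from WT at other loci that segregated in that cross. The labels do not say whether replicates were separate cultures, and the p-values measure only the spread between these libraries.

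In this route sulfate is first activated with ATP by Met3, phosphorylated by Met14 and reduced to sulfite by Met16. Sulfite reductase, an enzyme of Met5 and Met10 subunits, turns sulfite into sulfide. Met17 joins sulfide to O-acetylhomoserine, the product of Met2, to form homocysteine. Met6 methylates homocysteine to methionine, and Sam1 and Sam2 convert methionine into S-adenosylmethionine, the methyl donor of the cell. Transcription of most of these genes is known to rise when methionine and S-adenosylmethionine run low, through the activator Met4. Met4 does not bind DNA by itself and is brought to promoters by Cbf1 and by Met31 or Met32.

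The upstream sequences are shown because most of these 10 genes are best known as a jointly regulated set. In the R64 reference genome, the 500 nt before each start codon were searched for the Cbf1 core CACGTG, which reads the same on both strands. A match was found for 9 of the 10 genes, all but SAM1, and in 6.27% of 5915 windows of the same length. There were 12 matches in all, from 178 to 495 nt before the start codon. The match nearest the start codon of each gene is printed 5′ to 3′ on the strand of the gene, with the core in capitals. The windows lie at chrX:455869-455894 (+) for MET3, chrXI:439598-439623 (-) for MET14, chrXVI:877795-877820 (-) for MET16, chrX:683574-683599 (-) for MET5, chrVI:213071-213096 (+) for MET10, chrXIV:116986-117011 (+) for MET2, chrXII:732232-732257 (+) for MET17, chrV:342647-342667 (-) for MET6 and chrIV:1454772-1454797 (-) for SAM2.
MET3: ccagaaaagtCACGTGtaattttgta
MET14: ccactaatttCACGTGatcaatatat
MET16: atcatcatttCACGTGgctagtaaaa
MET5: tgaatttcatCACGTGcgtattatct
MET10: cttatagaagCACGTGaccacaattc
MET2: gacgtattttCACGTGatgcgcctca
MET17: tggcaaatggCACGTGaagctgtcga
MET6: tatttCACGTGacttacaaac
SAM2: tatttctaccCACGTGactataattg

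The core letters TGTGGC of Met31 and Met32 sites, searched on both strands, were found before 7 of the 10 genes, all but MET17, MET6 and SAM1, and in 14.3% of all windows. The Gcn4 core TGACTC, bound by the activator of general amino acid control and also searched on both strands, was found before MET16, MET5 and MET6, and in 12.8% of all windows. No 2 matches before the same gene overlapped. MET14 and SAM2, for example, carried the Met31 and Met32 letters on the strand of the gene.
MET14: cctcaaaaaaTGTGGCaatggagaag
SAM2: gcttgaaaacTGTGGCgtttttccac
These lie at chrXI:439562-439587 (-) and chrIV:1454745-1454770 (-). A match is a description of the letters and does not show that a factor was bound in these cells.

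**Figure D1:**
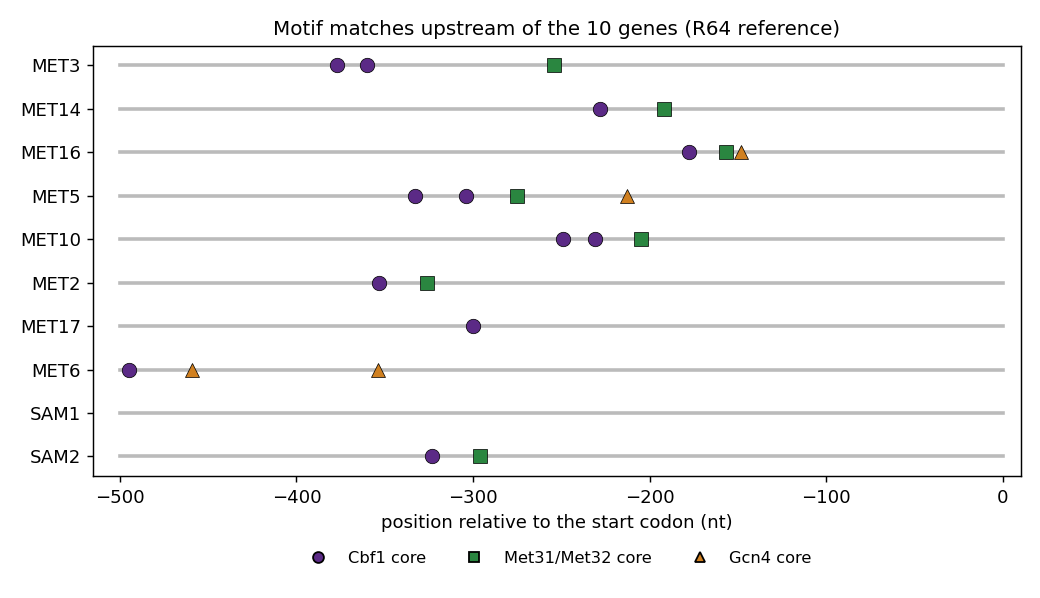
Positions of the Cbf1, Met31/Met32 and Gcn4 cores in the 500 nt before the start codon of each of the 10 genes in the R64 reference; the x axis gives the distance in nt and each symbol is 1 match. The Cbf1 core appears in 9 rows, and the row of SAM1 holds no match of any of the 3 kinds.

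Estimated counts are reads per feature, with ambiguous reads divided between features. Depth, as their sum, was 656162 to 5500084 in DUS KO and 4336794 to 5652837 in WT, and DUS KO replicate 3 was the shallowest library. For the deleted genes, DUS1 and DUS4 had 0 counts in every DUS KO library and 115 to 214 (DUS4) or 50 to 175 (DUS1) in WT, and DUS2 had 3 counts in DUS KO replicate 3, 0 in the other DUS KO libraries and 112 to 204 in WT. DUS3 kept estimated counts of 6.49 to 64.1 in DUS KO and of 82 to 129 in WT. Its counts were not whole in 5 of the 6 libraries and added up to whole numbers with those of YLR400W. Together the pair had 122, 96 and 22 counts in DUS KO and 154, 94 and 155 in WT. The division of these reads is not fixed by the data, so the deletion of DUS3 could not be checked from them. The marker HIS3 had 28 to 181 counts in DUS KO and 102 to 154 in WT, and LEU2 and URA3 were at 0 in all 6 libraries. All 6 genes specific to mating type a had counts in every library, from 44 to 1969 in DUS KO and from 74 to 1486 in WT, and 4 of them (MFA1, MFA2, STE6 and BAR1) were higher in every DUS KO library than in any WT library in normalized counts, as were 7.82% of all features. None of these 4 was called in edgeR's fit (adjusted p from 0.136 to 0.450), while DESeq2 called MFA1 (adjusted p = 0.000998), MFA2 (adjusted p = 0.00264) and STE6 (adjusted p = 0.0162). Of the 4 genes specific to mating type α, none exceeded 36 counts in a DUS KO library or 55 in a WT library. The part of strain background in the results was not tested. MET17, as a marker, went against its strain. BY4741 is known to carry a deletion of MET17, also named MET15, but WT replicates 2 and 3 held MET17 reads. Values of the other 9 genes were therefore also computed without these 2 libraries, which leaves WT replicate 1 alone for WT. The spread then comes from the DUS KO libraries only, and the WT library is assumed to vary like them, so that those estimates are given without a p.

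MET17 (YLR303W, chrXII:732542-733876, plus strand, 1 coding exon) was the member with the widest gap between the strains. It had 618, 290 and 37 counts in DUS KO and 0, 92 and 155 counts in WT. Scaled to library size by edgeR's TMM method, these were normalized counts of 104, 93.4 and 55.0 CPM (counts brought to a common library size) in DUS KO and of 0, 18.6 and 34.8 CPM in WT. The lowest DUS KO library thus lay above the highest WT library. WT replicate 1 stood at 0, a count that allows up to 0.687 CPM at a floor of 3 counts, and WT replicates 2 and 3 were at 22.1% and 41.3% of the DUS KO mean. These are bulk RNA values, in which fewer cells with MET17 RNA and less MET17 RNA per cell cannot be told apart.

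Averaged over libraries, MET17 was at 84.1 ± 25.8 CPM (SD, n = 3) in DUS KO and at 17.8 ± 17.4 CPM (SD, n = 3) in WT, a 4.73-fold difference of means. Pooled within strains and divided by summed depth, 945 counts in DUS KO against 247 in WT gave a ratio of 5.43 (95% exact interval 4.71 to 6.27, for counting error only). The difference did not pass the test. In edgeR's quasi-likelihood fit over all features, DUS KO over WT was 2.27 ± 1.15 on the log2 scale (SE, the standard error), with an adjusted p of 0.682 (Benjamini-Hochberg). By a two-sided exact permutation test on the difference of mean CPM, p was 0.1, below which no design with 3 libraries in each strain can go. Leaving out 1 library moved the log2 fold change between 1.69 (without WT replicate 1, standard error 0.36, adjusted p = 0.145 in edgeR's fit) and 3.19 (without WT replicate 3, adjusted p = 0.499), and no alternative called it.

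The genes beside MET17 were examined after its values were seen. YLR302C lies on the opposite strand at chrXII:732191-732553, is 363 nt long, overlaps the start of MET17 by 12 nt and spans the Cbf1 core shown for MET17. Its counts were 87, 34 and 3 in DUS KO and 0, 2 and 19 in WT, so that WT replicate 1 was again at 0 and WT replicate 3 the highest of the WT libraries. YLR302C had a log2 fold change of 2.73 ± 1.11 (SE, adjusted p = 0.538 in edgeR's fit). HRI1 and ACO1, the annotated genes on either side of this pair, did not share the pattern. HRI1 was at 174 ± 17.04 CPM (SD, n = 3) in DUS KO and 176 ± 15.4 CPM (SD, n = 3) in WT. ACO1, which encodes aconitase, was at 164 ± 26.3 CPM (SD, n = 3) in DUS KO and 161 ± 52.4 CPM (SD, n = 3) in WT.

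LYS2, a marker known to be deleted in BY4742, the mating partner strain of BY4741, ran the other way from MET17. Its counts were 2, 0 and 1 in DUS KO and 148, 330 and 86 in WT, and LYS2 was 1 of the 5 genes called (log2 fold change -6.85, adjusted p = 0.00296 in edgeR's fit). Among the WT libraries, replicate 1 held LYS2 reads (33.9 CPM) and no MET17 reads, while replicates 2 and 3 held both, with LYS2 at 66.6 and 19.3 CPM. MET17 had whole counts in all 6 libraries, so no reads were divided with another feature. A strain difference at the MET17 locus and an effect of the missing DUS enzymes cannot be told apart in this design, and the source of the MET17 reads in WT replicates 2 and 3 was not tested.

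**Figure D2:**
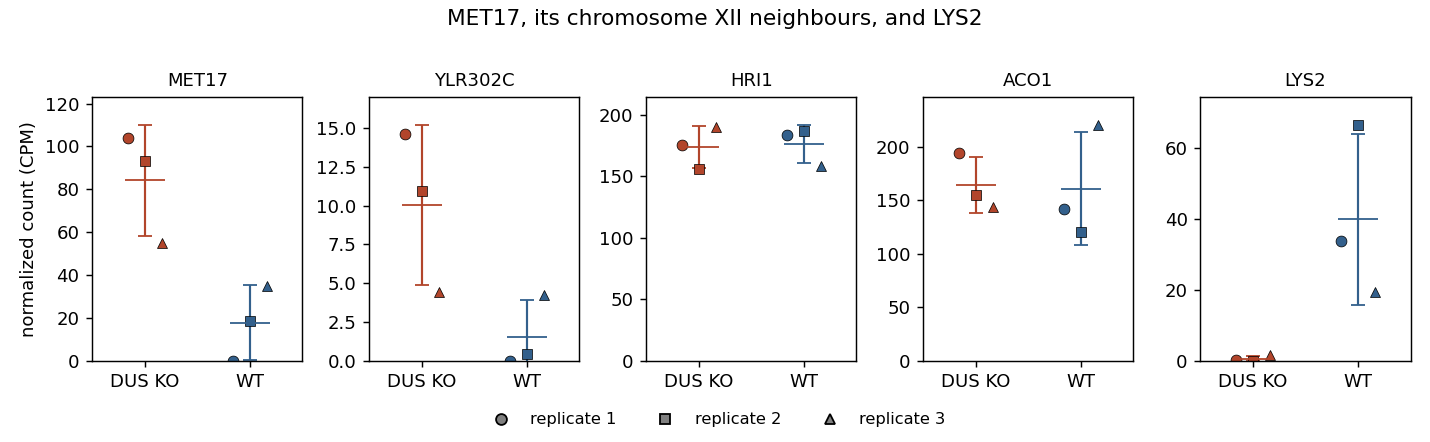
Normalized counts (CPM, linear axes from 0) of MET17, its neighbours YLR302C, HRI1 and ACO1, and LYS2 in each DUS KO and WT library; symbols give the replicate, horizontal lines the mean and bars 1 SD of 3 libraries. MET17 and YLR302C are at 0 in WT replicate 1, while HRI1 and ACO1 overlap between the strains.

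None of the 10 genes passed an adjusted p of 0.05 in edgeR's fit, and none had an unadjusted p under 0.05, which 8.26% of all features tested had. All 10 passed the filter on low counts. Over all 5884 features tested, 5 were called, which is 0.085%. All 5 were lower in DUS KO, and they include the deleted genes DUS1, DUS2 and DUS4 and the marker LYS2. The log2 fold changes were positive for 5 of the 10 genes and negative for 5, from -0.55 (MET14) to 2.27 (MET17), with a median of 0.07 beside a median of -0.02 over all features tested. Every DUS KO library lay above every WT library in CPM for 2 of the 10, MET17 and MET2, against 7.82% of all features. For MET2, this place and the positive sign depend on how reads shared with another feature, YNL276C, were divided. The summed pair had a log2 fold change of -0.49. Every DUS KO library lay below for 1, MET14, against 7.68%. By DESeq2, 0 of the 6 members that received an adjusted p were called. With limma-voom the count was 0 of 10, and for 1 of the 10 the unadjusted p was under 0.05. With WT replicate 1 as the only WT library, the estimates of MET3, MET16 and MET10 changed sign. Without DUS KO replicate 3, the shallowest library, none of the 10 was called either. On simulated counts of these depths, the edgeR test called 26.5% of genes raised by 1 on the log2 scale and 21.7% of those lowered by 1, so changes of that size would often be missed. The simulation held more strong changes, with 43 of 50 genes raised by 2 called, against 5 features in these data. More calls make the adjusted threshold less strict, so these shares may be too high for these data.

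**Figure D3:**
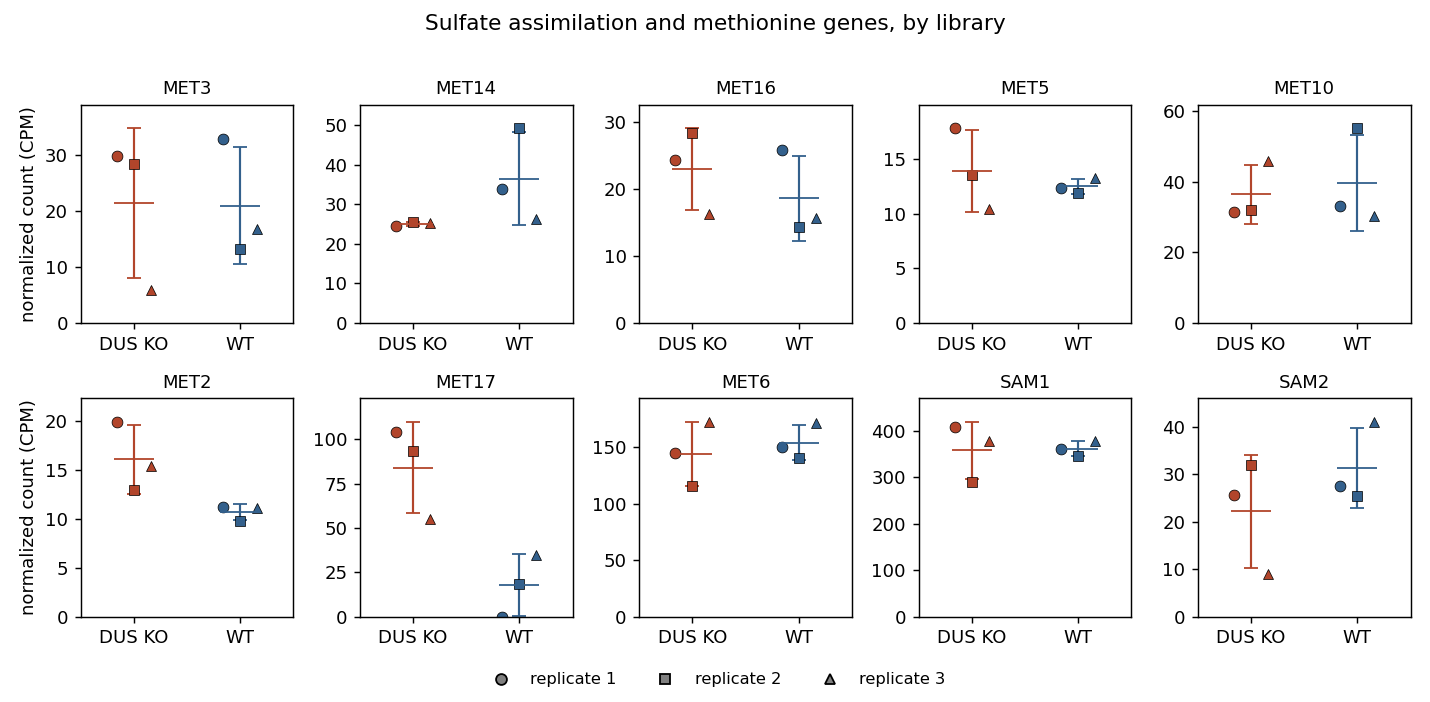
Normalized counts (CPM, linear axes from 0, a scale for each panel) of the 10 genes in DUS KO and WT libraries; symbols give the replicate, horizontal lines the mean and bars 1 SD of 3 libraries. The strains overlap in 7 panels and are apart in those of MET17, MET2 and MET14. The values of MET2 depend on how reads shared with YNL276C were divided.

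Of the genes that activate and reduce sulfate, MET3 (YJR010W, chrX:456239-457774) encodes ATP sulfurylase. It was at 29.8, 28.3 and 5.94 CPM in DUS KO and at 32.8, 13.1 and 16.8 CPM in WT. The strains overlapped widely, and the spread was larger within DUS KO (5.01-fold) and within WT (2.50-fold) than between the means. The low value in DUS KO replicate 3 rests on 4 counts, for which a 95% exact Poisson interval runs from 1.62 to 15.2 CPM. The log2 fold change was 0.15 ± 0.49 (SE, adjusted p = 0.966 in edgeR's fit), and without WT replicates 2 and 3 it was -0.44, with 1 WT library.

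MET16 (YPR167C, chrXVI:876847-877632) encodes the reductase that releases sulfite. It was at 24.4, 28.3 and 16.3 CPM in DUS KO and at 25.9, 14.3 and 15.7 CPM in WT. Its 3 highest libraries were those of MET3 as well, DUS KO replicates 1 and 2 and WT replicate 1, the WT library without MET17 reads. The log2 fold change was 0.35 ± 0.37 (SE, adjusted p = 0.864 in edgeR's fit), and -0.10 without WT replicates 2 and 3, with 1 WT library.

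MET14 (YKL001C, chrXI:438777-439385) encodes adenylylsulfate kinase, which acts between Met3 and Met16. Unlike both, it was lower in all 3 DUS KO libraries than in any WT library, at 24.4, 25.4 and 25.3 CPM in DUS KO and 33.9, 49.2 and 26.2 CPM in WT. The DUS KO values agreed within 1.04-fold, whereas the WT values spread over 1.88-fold. The log2 fold change was -0.55 ± 0.32 (SE, adjusted p = 0.687 in edgeR's fit, and p = 0.1 by the exact permutation test, again its lower limit). WT replicate 2 carried much of this gap, and without it the log2 fold change was -0.27. The estimate was negative in all 16 alternatives. In TPM, a level normalized by length and brought to a common library total, the strains overlapped, at 14.6, 13.0 and 13.5 TPM in DUS KO and 14.9, 20.2 and 12.5 TPM in WT.

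The 2 subunits of sulfite reductase were measured at unequal levels. MET5 (YJR137C, chrX:678957-683285), the β subunit, had 1.37, 0.891 and 0.715 TPM in DUS KO and 0.699, 0.631 and 0.815 TPM in WT, the lowest level of the 10 genes apart from MET17 in WT replicate 1. MET10 (YFR030W, chrVI:213312-216419), the α subunit, had 3.39, 2.94 and 4.44 TPM in DUS KO and 2.63, 4.10 and 2.61 TPM in WT. MET10 thus exceeded MET5 in every library, by 2.47 to 6.20 times in DUS KO and by 3.20 to 6.50 times in WT. Neither subunit separated the strains. In edgeR's fit the log2 fold changes were 0.20 for MET5 (standard error 0.41, adjusted p = 0.945) and -0.16 for MET10 (standard error 0.32, adjusted p = 0.943), and that of MET10 turned positive with total counts or TPM.

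Of the carbon branch, MET2 (YNL277W, chrXIV:117349-118809) encodes homoserine O-acetyltransferase, which makes the acceptor that Met17 uses. It was at 19.9, 13.0 and 15.4 CPM in DUS KO and at 11.2, 9.78 and 11.1 CPM in WT, so that all DUS KO libraries lay above all WT libraries. The log2 fold change was 0.58 ± 0.41 (SE, adjusted p = 0.764 in edgeR's fit, and p = 0.1 by the exact permutation test, again its lower limit).

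This separation depends on how reads were divided. The estimated counts of MET2 were not whole in any library, and with those of YNL276C, a feature outside the RefSeq annotation, they added up to whole numbers in all 6. Together the pair had 656, 394 and 72 counts in DUS KO and 716, 1028 and 509 in WT, of which MET2 was assigned 10.2% to 18.1% in DUS KO and 4.72% to 9.70% in WT. For the summed pair the log2 fold change was -0.49 (adjusted p = 0.603 in edgeR's fit), the reverse of that of MET2. No direction can be given for MET2, since the files fix the sum of the pair but not its division. Neither the labels nor the methods say whether strand was used in the quantification.

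MET6 (YER091C, chrV:339864-342167), which encodes the cobalamin-independent methionine synthase, had 145, 115 and 172 CPM in DUS KO and 150, 141 and 172 CPM in WT. The log2 fold change was -0.11 ± 0.20 (SE, adjusted p = 0.936 in edgeR's fit), and a band of 2 SE on each side ran from -0.51 to 0.29. With total counts it was 0.06, where the median of all features also moved, to 0.16.

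SAM1 (YLR180W, chrXII:515262-516410) and SAM2 (YDR502C, chrIV:1453310-1454464) encode the 2 S-adenosylmethionine synthetases of yeast. Their coding sequences of 1149 and 1155 nt are 82.8% identical over 1155 aligned columns. The longest run that both share is 59 nt, at chrXII:515961-516019 (+) in SAM1 and chrIV:1453701-1453759 (-) in SAM2, and is printed because reads that lie wholly within it cannot be assigned to one gene. All of its bases are identical in both.
SAM1 and SAM2: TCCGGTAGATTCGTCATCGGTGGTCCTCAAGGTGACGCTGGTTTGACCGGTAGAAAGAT
The estimated counts of the pair were not whole in any library and added up to whole numbers in all 6, 2573, 997 and 260 in DUS KO and 1696, 1841 and 1864 in WT. Of 1100 words of 50 nt in SAM1, 20 are also found whole in SAM2.

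SAM1 was the most abundant of the 10 genes in every library, at 123, 74.6 and 102 TPM in DUS KO and 79.8, 71.8 and 90.9 TPM in WT, with a mean level above 91.8% of features tested. SAM2 was at 7.72, 8.21 and 2.41 TPM in DUS KO and at 6.06, 5.26 and 9.87 TPM in WT. SAM1 took 90.0% to 97.7% of the reads of the pair in DUS KO and 90.2% to 93.1% in WT. The highest share was in DUS KO replicate 3 (95% exact interval 95.1% to 99.2%, counting error only), where SAM2 was assigned 6.05 counts.

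Neither synthetase gene passed the test. SAM1 was at 358 ± 61.5 CPM (SD, n = 3) in DUS KO and 361 ± 15.6 CPM (SD, n = 3) in WT, a log2 fold change of -0.01 ± 0.18 (SE, adjusted p = 0.990 in edgeR's fit) whose sign changed with the scaling. SAM2 was at 22.2 ± 11.9 CPM (SD, n = 3) in DUS KO and 31.4 ± 8.50 CPM (SD, n = 3) in WT. Its log2 fold change was -0.40 ± 0.39 (SE, adjusted p = 0.852 in edgeR's fit), and -0.12 without DUS KO replicate 3.

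In order of mean TPM over the 6 libraries, SAM1 (90.3) was followed by MET6 (18.1), MET14 (14.8), MET17 (11.8), MET16 (7.89), SAM2 (6.59), MET3 (3.93), MET10 (3.35), MET2 (2.68) and MET5 (0.854). The ranges over the 6 libraries were apart for SAM1 and MET6 and for MET2 and MET5, and overlapped for each other pair of neighbours in this order, although SAM2 exceeded MET3 within every library. The place of MET2 depends on the division of reads with YNL276C, which the files do not fix. The place of MET17 in this order holds for neither strain, since it averaged 20.01 TPM in DUS KO, above MET6 at 19.4 TPM, and 3.48 TPM in WT, beside MET3 at 3.45 TPM. All 10 genes together made up 0.0154% to 0.0220% of transcripts by TPM in DUS KO and 0.0128% to 0.0155% in WT. Without MET17 their summed TPM was 133 to 193 in DUS KO and 124 to 148 in WT, values that overlap. The median TPM of all features, at 4.94 to 5.74 in DUS KO and 3.82 to 4.55 in WT, was itself higher in DUS KO, so that sums of TPM carry this shift.

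The other genes of sulfur metabolism were read from a list of 30 that covers uptake, siroheme synthesis, homoserine synthesis, transsulfuration, folate-dependent methyl supply, the methyl cycle and the regulators. All 30 passed the filter and none was called in edgeR's fit, nor were any of the 19 that DESeq2 gave an adjusted p. At an unadjusted p under 0.05, 1 was higher and 2 were lower, beside 3.33% higher and 4.93% lower over all features tested. Their log2 fold changes had a median of -0.03, with 14 positive and 16 negative, and ran from -0.96 to 0.87. All DUS KO libraries lay above all WT libraries for 3 of the 30 (MUP1, MMP1 and HOM6) and below for 3 (CYS3, SAH1 and CBF1), beside 7.82% above and 7.68% below over all features. These counts are near those shares. The group of siroheme and phosphate by-product genes (MET1, MET8 and the phosphatase gene MET22) and the methyl cycle group (SAH1, MHT1 and SAM4) each had 3 negative estimates of 3. The transsulfuration group had 2 positive and 2 negative. Over all 5884 features tested, 3034 estimates were negative and 2850 positive. Groups this small were not tested as sets.

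Among the uptake genes, MUP1, the high-affinity methionine permease, was at 211, 223 and 177 CPM in DUS KO and at 143, 108 and 145 CPM in WT. These libraries did not overlap. Its log2 fold change was 0.63 ± 0.19 (SE, unadjusted p = 0.00617 and adjusted p = 0.364 in edgeR's fit). MMP1, the S-methylmethionine permease, was at 22.9, 35.1 and 29.7 CPM in DUS KO and at 19.9, 16.3 and 22.7 CPM in WT, a log2 fold change of 0.57 (adjusted p = 0.687 in edgeR's fit). The lowest DUS KO value of MMP1 lay just above its highest WT value. Of the 7 uptake genes, 5 had positive log2 fold changes, with a median of 0.37.

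CYS3, which encodes the lyase that makes cysteine from cystathionine, was lower in all DUS KO libraries, at 269, 215 and 248 CPM in DUS KO and 296, 358 and 388 CPM in WT. Its log2 fold change was -0.51 ± 0.18 (SE, unadjusted p = 0.0160 and adjusted p = 0.489 in edgeR's fit). SAH1, which encodes the hydrolase that returns S-adenosylhomocysteine to homocysteine, was at 149, 137 and 158 CPM in DUS KO and at 167, 179 and 269 CPM in WT, a log2 fold change of -0.48 (unadjusted p = 0.0430 and adjusted p = 0.585 in edgeR's fit). For both genes the strains were apart, and for SAH1 the gap was widest against WT replicate 3.

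Among the regulators, CBF1 was at 8.08, 2.58 and 10.4 CPM in DUS KO and at 16.03, 11.3 and 11.2 CPM in WT. DUS KO was thus below WT throughout, with few counts (7 in DUS KO replicate 3). Its log2 fold change was -0.96 ± 0.57 (SE, adjusted p = 0.699 in edgeR's fit). MET4, which encodes the activator itself, had a log2 fold change of 0.37 ± 0.42 (SE, adjusted p = 0.876 in edgeR's fit), with overlapping libraries. GCN4 RNA was at 508, 496 and 542 CPM in DUS KO and at 517, 548 and 671 CPM in WT, which overlap.

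**Figure D4:**
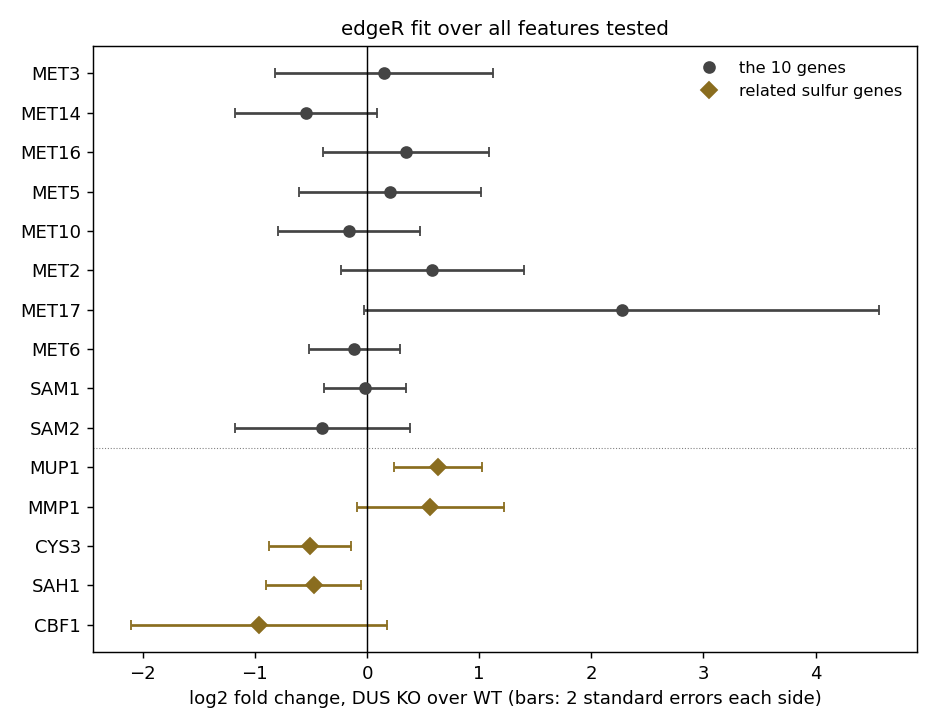
Log2 fold changes of DUS KO over WT from the edgeR fit, for the 10 genes (circles) and the 5 largest changes among the 6 related sulfur genes whose libraries did not overlap, HOM6 left out (diamonds); bars give 2 standard errors each side. MET17 has the largest estimate and the widest bar, and SAM1 and MET6 have the narrowest bars among the 10 genes.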

How the data were processed

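RNA-seq libraries of DUS KO and WT (n = 3 each) were analysed. The 6 D-seq libraries were not used here. The authors deposited, per feature, an estimated count (not normalized) and a TPM value (normalized by effective length and library total). The paper's read processing (bbduk trimming, collapse on the UMI, bbmap alignment to sacCer3) is described without saying whether it covered the RNA-seq libraries. The program behind the estimated counts is not named there or in the labels.

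Deposited estimated counts were rounded, filtered with filterByExpr (5884 of 6612 features kept), scaled with TMM and compared with edgeR's quasi-likelihood test (robust dispersion, Benjamini-Hochberg adjustment over all features, threshold 0.05). The standard error was the size of the log2 fold change divided by the square root of F. The test was checked on simulated data, where 7 of 5533 unchanged genes were called. Feature pairs that share reads were sought by sums whole within 0.02 in every library. Genes and lists were chosen with earlier results of these data known. Named were all 10 genes, the strain markers, examples of the mating-type genes, and of the 30 related genes those called or, up to 5, the largest changes without overlap. MET4, GCN4, YCT1, MET32 and the neighbours were added after values were seen. Motifs and coordinates come from RefSeq R64, the assembly of sacCer3. Alternatives were other scalings (median-ratio, total counts), filters (none, or 10 counts in every library), the tools limma-voom and DESeq2, log2(TPM + 1) or log2(TPM + 0.1) tested with limma, a replicate block and leaving out each library. Dropping WT replicates 2 and 3 together and summing features that share reads were chosen after seeing the data. Software was R 4.3.3, edgeR 4.0.16, limma 3.58.1 and DESeq2 1.42.0.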

Additional observations from a re-analysis of the deposited data

How the results depend on the processing

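None of the 10 genes and none of the 30 related genes was called under any alternative in which they were counted, leaving aside the fit with 1 WT library. With paired features summed, computed for MET2 and SAM1 alone, neither was called. Without WT replicates 2 and 3, WT is 1 library that is assumed to vary like the DUS KO libraries. Calls among the 10 genes and the 30 related genes from that fit are therefore not given. Its number of calls over all features is listed below only as a record of the run. That number is not comparable with those of the other fits, and no conclusion is drawn from it. The median log2 fold change of the 10 genes, or of those that had a value, stayed between -0.09 and 0.25. It covered 6 genes with the filter of 10 counts and 9 without WT replicates 2 and 3, in both cases without MET17. Over all features, the 5 calls became 3 with total counts, 1 with 10 counts in every library, 53 with DESeq2, 0 with limma-voom (600 at an unadjusted p under 0.05), 10 with log2(TPM + 1), 3 with the replicate block, 1 to 12 without single libraries (12 without WT replicate 1, 1 without DUS KO replicate 1) and 21 without WT replicates 2 and 3 (MET17 left out). The filter of 10 counts leaves 3482 features; otherwise the cause was not tested. The median of all features was 0.22 on log2(TPM + 1), 0.29 on log2(TPM + 0.1) and 0.16 with total counts.

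Directions of uncalled genes reversed as follows, with no cause tested. With total counts the log2 fold change was 0.04 for MET10, 0.057 for MET6 and 0.16 for SAM1. With log2(TPM + 1) it was 0.17, 0.19 and 0.28, and with log2(TPM + 0.1) it was 0.21, 0.19 and 0.28, for the same genes in the same order. Without WT replicates 2 and 3 it was -0.44 for MET3, -0.10 for MET16 and 0.067 for MET10, and with paired features summed -0.49 for MET2. Leaving out 1 library ranged over -0.14 to 0.62 for MET3, -0.035 to 0.332 for MET5, -0.33 to 0.15 for MET10, -0.24 to 0.029 for MET6 and -0.13 to 0.12 for SAM1. MET14, MET17 and SAM2 kept their direction in every alternative that gave a value.

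No pairing of libraries by replicate number was seen, which does not exclude it. For DUS KO and WT libraries of equal number, the deviations from the strain mean had correlations over genes of 0.03, -0.04 and -0.07. With the replicate block MET17 had a log2 fold change of 2.83 (adjusted p = 0.825 in edgeR's fit). Depth limits DUS KO replicate 3 most, where MET3, MET5, SAM2 and, after rounding, MET2 had 10 counts or fewer.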

Other observations

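Among the WT libraries, replicate 1 held no MET17 reads and had the highest MET3 and MET16 values. The same was seen for YCT1, which encodes a cysteine transporter, at 26.9, 25.1 and 38.6 CPM in DUS KO and 30.0, 5.45 and 15.7 CPM in WT. It was also seen for MET32, a DNA-binding partner of Met4, at 8.75, 5.48 and 5.94 CPM in DUS KO and 6.41, 1.01 and 3.81 CPM in WT, where the WT values rest on 28, 5 and 17 counts. MET3, MET16, YCT1 and MET32 were all lowest in WT replicate 2. Whether replicate 1 was high or replicate 2 low for them was not tested. Over the 10 genes, WT replicate 1 was the highest WT library for 3 and WT replicate 3 for 5, while WT replicate 2 was the lowest for 7. Over the 30 related genes WT replicate 1 was the highest WT library for 12 and the lowest for 12, which include MET4 (11.5 CPM, against 26.0 and 22.2 CPM in the other WT libraries), CYS3 and SAH1. MET14 and MET10 had their highest values instead in WT replicate 2. These genes were picked after their values were seen, and with 1 library of this kind no test was possible. MUP1, the methionine permease, had the lowest unadjusted p among the 30 related genes and was not called by DESeq2 either (adjusted p = 0.0967).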
